A study of Mus musculus with 10 samples.

Results

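The genes described here make up the MHC class I molecule and the machinery that loads it with peptide: the heavy chain genes H2-K1, H2-D1, H2-Q4, H2-Q7, H2-T22 and H2-T23, the light chain gene B2m, the peptide transporter genes Tap1 and Tap2, and Tapbp, which encodes tapasin. They were listed by name and are 10 of the 32285 genes in the count tables. All 10 were counted in every library. They are given above all for tumor cells and beside macrophages, T cells and the remaining barcodes.

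SW1 is a mouse melanoma line that was grown under the skin of the right flank of female C3H/HeJ mice, 4 to 6 weeks old at injection, and L-fuc (L-fucose) is a sugar given in the drinking water. The question was how L-fuc changes the cells of the tumor, and cells sorted for CD45, a surface protein of leukocytes, were run in droplets (10x Genomics). Molecules were counted by their unique molecular identifiers (UMIs). Each condition gave 1 library: one control taken at day 0, then both a control and an L-fuc library on day 7 and again on day 21. Where 5 values are given in a row they run from day 0 to day 21, with control before L-fuc on each day. The day 0 library is the cohort taken before treatment, although its label reads control water. Days are counted from the start of the treated or control water, which the labels place 10 days after injection. The labels give the concentration of L-fuc as 100 mM in one protocol and 100 nM in another, and 3 mice for the cohort at day 0 with 6 or 5 mice per arm afterwards. With 1 library per condition no test between conditions was possible. Levels are in CPM, the UMIs of a gene in every 1000000 UMIs of the same cells, with exact Poisson 95% intervals, and ratios carry exact 95% intervals. These intervals cover counting error only and say nothing of the spread between mice or libraries.

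MHC class I molecules show peptides from inside the cell to CD8 T cells. The proteasome cuts proteins into peptides, Tap1 and Tap2 carry these into the endoplasmic reticulum, tapasin holds the empty heavy chain and B2m beside the transporter, and the filled complex then moves to the cell surface. Interferon-gamma raises most genes of this route, and tumor cells with little class I are hard for CD8 T cells to see.

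Barcodes with at least 500 genes and at most 10% mitochondrial UMIs were kept. A tumor barcode had at least 1 UMI of Sox10, a factor of melanoma, melanocyte and Schwann cells, and no UMI of Ptprc, which encodes CD45. A macrophage barcode had at least 10 UMIs of C1qa, C1qb and C1qc together, and a T cell barcode at least 2 UMIs of Cd3e, Cd3d and Cd3g. A barcode that met more than 1 of these gates was set aside. In that order, the tumor gate held 260, 8648, 2820, 471 and 297 barcodes, the macrophage gate 373, 1253, 1503, 767 and 381, the T cell gate 393, 968, 1292, 54 and 34, and 358, 6335, 2795, 258 and 435 barcodes met no gate. Tumor barcodes were thus 17.7% to 48.3% of kept barcodes in a CD45+ sort. Libraries held 14439185 to 119047810 UMIs, and the median tumor barcode held 7394 UMIs in control at day 7 and 14039.5 to 24199 in the other libraries. Pairs of libraries shared 3 to 433 barcode sequences, the most between both libraries of day 7.

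The tumor gate was checked against cell type markers. Erbb3, a neuregulin receptor gene of neural crest and Schwann cells, stood at 105 to 154 CPM in tumor barcodes. Sparc, a matrix protein gene outside the marker lists, stood at 3004 to 3882 CPM there. In barcodes that met no gate at day 21, Sparc was at 117% of the tumor level in control and 113% in L-fuc. Fibroblast markers, 6 genes summed, were at 213 to 411 CPM in tumor barcodes. In ungated barcodes at day 21 they were at 10521 CPM in control and 7582 in L-fuc. The pigment genes Tyr and Gpr143 were at 0 in tumor barcodes of every library, and Mlana (at most 0.0721 CPM), Pmel (at most 1.04) and Dct (0.282 to 2.68) were near it. Tyrp1, another pigment gene, stood at 13.1 to 30.4 CPM and Mitf, the melanocyte master regulator, at 29.0 to 45.5. Levels of Tyrobp, Laptm5, Cd52, Cd53, Coro1a, Lyz2 and Ctss, 7 genes of leukocytes that no gate used, were in tumor barcodes 0.0438% to 3.72% of their levels in macrophage barcodes. They were highest in control at day 7, at 2.09% to 3.72%, and were 0.557% to 1.62% in L-fuc at day 7. Fcer1g, the Fc receptor gamma chain gene, was an exception at 17.3% to 29.6%. In the other direction, tumor RNA was found in the immune gates at day 7. It was read from the median over 5 genes taken as tumor genes, Sparc, S100b, Ptn and Postn among them. Postn, like Sparc, was not particular to tumor barcodes: ungated barcodes at day 21 held it at 174% of the tumor level in control and 106% in L-fuc. In control at day 7 the median reached 25.2% of the tumor level in macrophage barcodes and 48.8% in T cell barcodes. It was 10.8% and 19.6% in L-fuc at day 7 and at most 7.61% in these gates at day 0 and day 21. Hemoglobin RNA was also seen in tumor barcodes at day 7, with the gene Hbb-bs at 453 CPM in control and 1081 in L-fuc and at most 3.78 on the other days. Median log2 ratios between libraries in the immune gates are therefore also given after subtraction of the tumor RNA, a step added after the data were seen, while levels and ratios of single genes in these gates are as counted.

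All members but B2m lie on chromosome 17, in and beside the mouse MHC, and B2m lies on chromosome 2. By GENCODE vM21 on GRCm38, H2-K1 spans 33996017 to 34000347 on the minus strand, H2-D1 35262730 to 35267499 on the plus strand, Tap1 34187553 to 34197225 and Tap2 34203527 to 34216321 on the plus strand, and B2m 122147686 to 122153083 on the plus strand. The promoters of the heavy chain genes are shown because these members are known to be switched together by NF-kB and interferon regulatory factors. RefSeq promoter sequences on GRCm38.p6 were found for 9 of the 10 members, and the 250 bases before each start were searched on both strands for an NF-kB site (kB, read as GGGGATT, any base, then CC), GAANNGAAA (a core of the interferon-stimulated element, IRF), TGACG and CCAAT. The kB and IRF letters were both found in H2-K1, H2-D1, H2-Q4 and H2-Q7, in the same order and almost the same spacing. Of 27025 genes, 14, or 0.0518%, held both, while 0.285% held kB and 7.30% held IRF. These shares depend on how narrowly the letters were set. The kB letters leave a single base open, where H2-Q4 differs from H2-K1, H2-D1 and H2-Q7, so the low shares are no result about the members. Capitals mark the kB match, on the left, and the IRF match, which reads on the opposite strand, on the right.
H2-K1, chr17:34000429-34000458, minus strand: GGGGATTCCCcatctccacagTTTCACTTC
H2-D1, chr17:35262923-35262952, plus strand: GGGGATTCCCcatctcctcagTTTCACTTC
H2-Q4, chr17:35379443-35379472, plus strand: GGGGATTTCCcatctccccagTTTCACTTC
H2-Q7, chr17:35439022-35439050, plus strand: GGGGATTCCCatctccccagTTTCACTTC

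The H2-K1 and H2-D1 windows share 29 of 30 bases, and the H2-Q4 window shares 28 of 30 with each of them. The H2-D1 window lies upstream of the RefSeq start but inside the first exon of the longer GENCODE transcript. H2-T22, H2-T23, B2m, Tap1 and Tapbp held neither motif in these letters. TGACG, part of a cAMP response element, was found in 7 of 9 members and in 19.8% of all genes, and CCAAT in all 9 and in 37.5%. For H2-T22, B2m and Tap1, the members with TGACG and neither kB nor IRF, that match is shown in capitals with 10 bases on each side.
H2-T22, chr17:36042750-36042774, minus strand: aaggaagtcaTGACGtgggagaaag
B2m, chr2:122147599-122147623, plus strand: aggagactggTGACGacctccggat
Tap1, chr17:34187460-34187484, plus strand: cagagacaggTGACGacagagggtc

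These matches describe the reference of the C57BL/6 strain, whereas C3H/HeJ mice carry other alleles of the heavy chain genes (the k haplotype, against b in the reference). Reads of k alleles that did not map to the b reference cannot be counted from these tables. The heavy chain genes also resemble each other: of all 90-base windows of their transcripts in GENCODE vM21, 19.1% in H2-Q7, 16.0% in H2-T22, 9.11% in H2-T23, 4.84% in H2-D1, 4.40% in H2-Q4 and 0.0900% in H2-K1 occur in another gene. The share was 0 for B2m, Tap1 and Tap2 and 0.421% for Tapbp. How the counting divided reads of such windows was not tested.

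**Figure D1:**
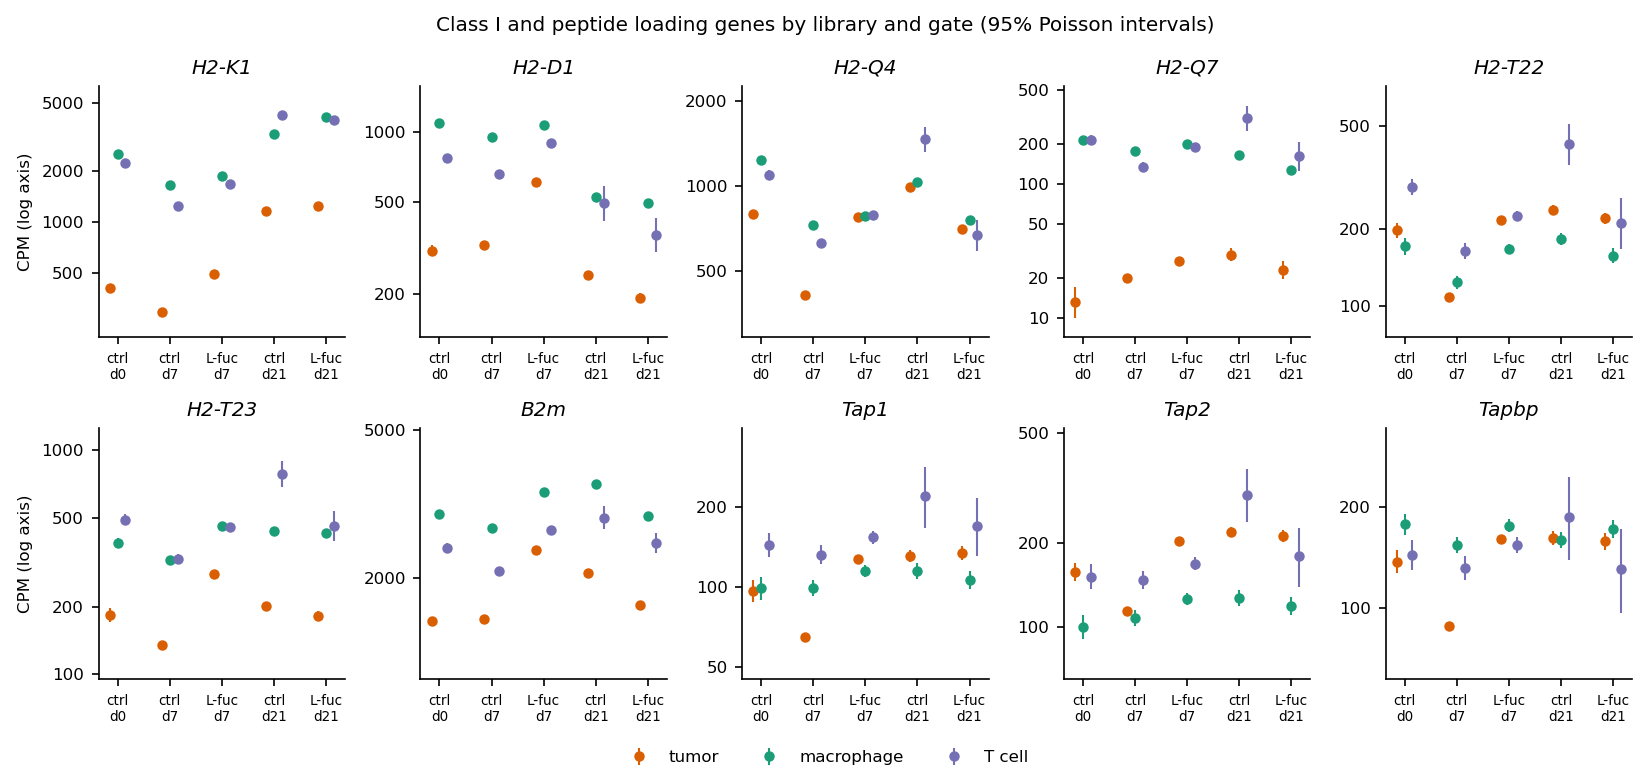
Levels of the 10 genes in tumor, macrophage and T cell barcodes of the 5 libraries, in CPM on log axes that differ between panels, with Poisson 95% intervals (ctrl, control; d, day). Tumor points lie below both immune gates for H2-K1, H2-D1, H2-Q7, H2-T23 and B2m in every library and among or above them for H2-T22 and Tap2 in most.

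Tumor barcodes held RNA of all 10 genes. The classical heavy chain genes H2-K1 and H2-D1, whose products present most peptides to CD8 T cells, were lower in tumor barcodes than in macrophages of the same library in 5 of 5 libraries. In tumor barcodes H2-K1 stood at 405 CPM at day 0, 296 in control at day 7, 492 in L-fuc at day 7, 1159 in control at day 21 and 1242 in L-fuc at day 21. In macrophages of the same libraries it stood at 2500, 1658, 1862, 3281 and 4124. The tumor level was thus 16.2% of the macrophage level at day 0 and at most 35.3%, in control at day 21. H2-D1 in tumor barcodes stood at 307, 326, 605, 241 and 192 CPM in the same order, which is 28.1% to 56.2% of the macrophage level, with the highest share in L-fuc at day 7. Both shares exceeded those of the 7 leukocyte genes in every library. Fcer1g was not among these 7, and with a lowest share of 17.3% it stood above H2-K1 at day 0. The class II genes reached at most 14.6% (Cd74), 22.6% (H2-Aa), 19.9% (H2-Ab1) and 17.6% (H2-Eb1) of the macrophage level. These highest shares lay below the lowest share of H2-D1, but all except that of Cd74 lay within the range of H2-K1.

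The nonclassical heavy chain genes fell on both sides. H2-Q7, which encodes a Qa-2 molecule in the C57BL/6 reference, was the member with the lowest share. It was at 6.19% of the macrophage level at day 0 and 18.1% in L-fuc at day 21, and its tumor levels were only 13.2 to 29.7 CPM. As 19.1% of its 90-base windows occur in another gene, its counts may not be those of a Qa-2 gene in C3H/HeJ mice, which was not tested. H2-T23, which encodes Qa-1, a ligand of the NKG2A receptor, was at 41.9% to 61.2%. H2-Q4 was at 56.5% of the macrophage level in control at day 7, 64.6% at day 0 and 92.7% to 98.7% in the other libraries. H2-T22, whose product is seen by some gamma-delta T cells, was above the macrophage level in 4 of 5 libraries, at 115% to 140%, and below it in control at day 7, at 87.7%. With scaling by trimmed means, H2-T22 was instead below macrophages in all 5 libraries.

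B2m, the light chain that every class I molecule needs, stood in tumor barcodes at 1539, 1554, 2378, 2067 and 1698 CPM, which is 51.7% to 69.7% of the macrophage level. The loading genes fell on both sides of the macrophage level. Tap2 was higher in tumor barcodes in 4 of 5 libraries, by 1.58 to 1.79 times, and at 1.05 times in control at day 7 with an interval of 0.984 to 1.13, and with scaling by trimmed means it was slightly below macrophages at day 0. Tap1 was above macrophages in 3 of 5 libraries, at up to 1.26 times, below in control at day 7 at 0.655 times, and not distinguishable at day 0 with a ratio of 0.978 and an interval of 0.852 to 1.12. Scaling by trimmed means put Tap1 below macrophages in the 3 libraries as well. Tapbp was at 57.1% in control at day 7 and at 77.4% to 101% in the others.

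Seen over the members, 4 of 10 were at least 2-fold lower in tumor barcodes than in macrophages in each of 4 libraries, namely H2-K1, H2-D1, H2-Q7 and H2-T23, and 2 of 10, H2-K1 and H2-Q7, in L-fuc at day 7. Of all genes tested, 13.3%, 13.1%, 13.5%, 13.6% and 13.8% were that much lower in the same order. At 1.5-fold the counts were 6, 8, 4, 5 and 5 members, against 17%, 17%, 17%, 16.8% and 17.1% of all genes. The median log2 ratio of the members ran from -0.82 to -0.33, while the median of all genes ran from 0.41 to 0.75. With scaling by trimmed means the medians of the members were -1.50, -1.07, -0.77, -1.11 and -1.11. T cells differed less from macrophages than tumor barcodes did for H2-K1, H2-D1 and H2-Q7: their ratios to macrophages were 0.7445 to 1.2998 for H2-K1, 0.693 to 0.941 for H2-D1 and 0.759 to 1.89 for H2-Q7. Tap1 and Tap2 were higher in T cells than in macrophages in each library, by 1.33 to 1.91 and 1.34 to 2.36 times.

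**Figure D2:**
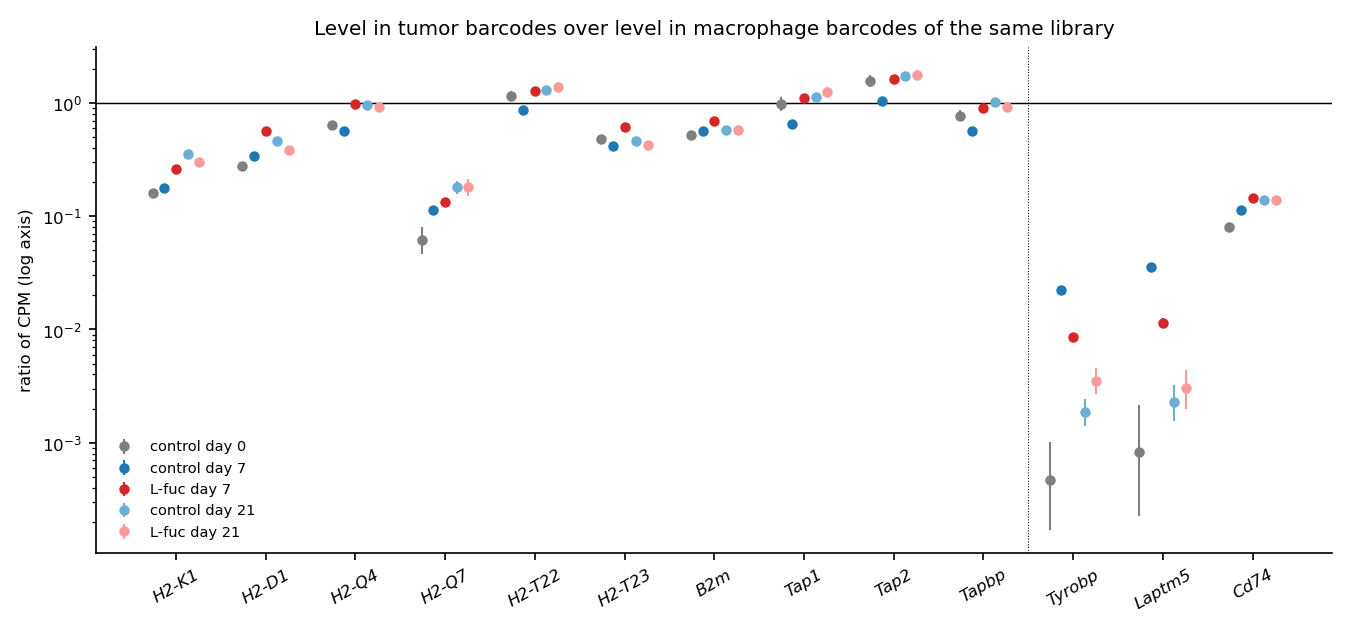
Ratio of the level in tumor barcodes to that in macrophage barcodes of the same library, on a log axis with exact 95% intervals, for the 10 members and, right of the dotted line, the leukocyte genes Tyrobp and Laptm5 and the class II gene Cd74. H2-K1 and H2-Q7 lie well below 1 and Tap2 above 1, while Tyrobp and Laptm5 lie below every member.

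The share of tumor barcodes with class I RNA was compared after every barcode was thinned to 2000 UMIs. H2-K1 was then seen in 46.2% of tumor barcodes at day 0 (95% exact binomial interval 39.8% to 52.6%), 38.6% in control at day 7, 55.1% in L-fuc at day 7, 79.2% in control at day 21 and 80.7% in L-fuc at day 21. Without thinning the shares were 80.8%, 69.8%, 88.4%, 95.1% and 92.9%. Of macrophage barcodes at the thinned depth, 89.9% to 98.5% held H2-K1. Tyrobp, a leukocyte gene that tumor cells should lack, was seen in 0.405% of thinned tumor barcodes at day 0, 8.39% in control at day 7 and 3.99% in L-fuc at day 7. Thinning left out 13, 487, 161, 19 and 69 tumor barcodes that held fewer UMIs.

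Counted together, the 10 members gave a median of 6 UMIs of 2000 in tumor barcodes at day 0, 5 in control at day 7, 9 in L-fuc at day 7, 10 in control at day 21 and 9 in L-fuc at day 21, against 14 to 18 in macrophages. No member was seen in 6.48% of thinned tumor barcodes at day 0 and in 4.14% in control at day 7, against 0.752% in L-fuc at day 7 and at most 0.439% at day 21. The spread among tumor barcodes was wide, from 1 to 15 UMIs between the 5th and 95th percentiles in control at day 7 and from 2 to 21 in L-fuc at day 7.

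In both libraries of day 7, B2m, H2-Q4, Tap1, Tap2 and Tapbp were more frequent in tumor barcodes with a UMI of H2-K1 or H2-D1. The share of all genes with such a difference was not determined. In control at day 7, tumor barcodes with a UMI of H2-K1 or H2-D1 held Tap1 in 13.9% of cases and the others in 6.93%, H2-Q4 in 57.0% against 32.3%, and Psmb8, an immunoproteasome subunit gene, in 45.4% against 25.3%. In L-fuc at day 7 the shares for Tap1 were 22.2% and 13.5%, and for Psmb8 69.1% and 46.8%. Tyrobp was found in 8.62% and 8.07% in control at day 7 and in 4.47% and 2.33% in L-fuc, and Sparc in 97.5% and 96.6% in control and 96.0% and 90.5% in L-fuc. In each of the other libraries H2-Q4, Tap1, Tapbp and Psmb8 were also more frequent in barcodes with H2-K1 or H2-D1. The 95% intervals of the shares overlapped there for Tap1 and Tapbp in each library and for H2-Q4 in control at day 21. They also overlapped for B2m and Tap2 in both libraries of day 21. Sparc was found in 97.4% against 89.9% in control and 97.4% against 91.4% in L-fuc at day 21, and in 96.7% against 99.0% at day 0. Tap1 in control at day 21 was at 24.3% (20.1% to 28.9%) against 18.8% (10.4% to 30.1%). In L-fuc at day 21, where 35 barcodes had neither, B2m was found in 94.8% against 97.1% and Tap2 in 35.2% against 34.3%. Barcodes of a library share its capture and its depth of sequencing, and no test was made over barcodes.

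Hypoxic tumor barcodes had a UMI of Car9, an acid-handling enzyme gene switched on by low oxygen, and were not cycling. They were compared with tumor barcodes that had no UMI of Car9 and were not cycling. At day 0 all 10 members were lower in hypoxic barcodes, with a median ratio of 0.659 where all genes had 0.890, and 9 of the 10 intervals lay below 1, against 24% of genes. In L-fuc at day 7 the median ratio was 0.813 (all genes 0.886), again with 9 intervals below 1, against 40.7% of genes, and none above, against 11.2%. In L-fuc at day 21 it was 0.799 (all genes 0.879) with 6 below, against 23.1%, and 1 above, against 8.03%. In control at day 7 the median was 0.951 (all genes 0.908) with 6 below, against 37.8%, and 3 above, against 10.3%. In control at day 21 it was 1.01 (all genes 0.902) with 2 below, against 20.7%, and 2 above, against 7.81%. No interval lay above 1 at day 0, against 9.72% of genes. Intervals narrow with the UMIs of a gene, so these shares depend on level as well as on ratio. Tapbp was lower in hypoxic barcodes in each library, at ratios of 0.389, 0.802, 0.562, 0.684 and 0.521, while B2m ran from 0.884 to 1.15. Cycling barcodes had at least 3 UMIs of Mki67, Top2a, Cdk1, Ccnb1 and Birc5 together. Those of them without a UMI of Car9 had median ratios of 0.900 to 1.20. Hypoxic barcodes were 23.1% of tumor barcodes at day 0, 22.5% in control and 36.9% in L-fuc at day 7, and 16.8% and 13.8% at day 21. Barcodes with a UMI of Car9 that were also cycling were a further 3.08%, 5.24%, 5.82%, 5.10% and 5.39%. These shares were taken without thinning, and a deeper barcode more readily shows a UMI of Car9. The median tumor barcode held 7394 UMIs in control and 14039.5 in L-fuc at day 7. The part of depth in the difference between these shares was not tested.

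At day 7 the tumor barcodes of the L-fuc library held more RNA of all 10 members than those of the control library. H2-T23 went from 136 to 280 CPM, 2.06 times higher with an interval of 2.002 to 2.114. H2-T22 went from 108 to 216 and was 1.99 times higher, and Tap1 went from 65.0 to 128 and was 1.97 times higher. H2-Q4 was 1.88, H2-D1 1.86, Tapbp 1.82, Tap2 1.80, H2-K1 1.66 and B2m 1.53 times higher. H2-Q7 was the least changed, from 20.02 to 26.58 CPM, at 1.33 times and an interval of 1.23 to 1.44. All 10 intervals lay above 1, but they cover counting error only. The share of all genes with such an interval was not determined.

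Of the 10 members, 9 were at least 1.5-fold higher in L-fuc at day 7, a size reached by 3.24% of all genes tested in tumor barcodes, and 1, H2-T23, was at least 2-fold higher, against 1.25% of all genes. The median log2 ratio of the members was 0.88 and that of all 13072 genes was -0.04. For each single member, 1.16% to 5.30% of genes had a log2 ratio as high. In the control library at day 7, 7 of the 10 members had their lowest tumor level of the 5 libraries. The share of all genes with their lowest level there was not determined, so a shift of the whole library cannot be told apart. H2-Q4 in tumor barcodes stood at 796 CPM at day 0, 412 in control and 773 in L-fuc at day 7, and Tapbp at 137, 88.2 and 160. In L-fuc at day 7, 9 of the 10 members stood above both day 0 and the control of the same day, and H2-Q4 stood between them. This too was not counted over all genes.

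**Figure D3:**
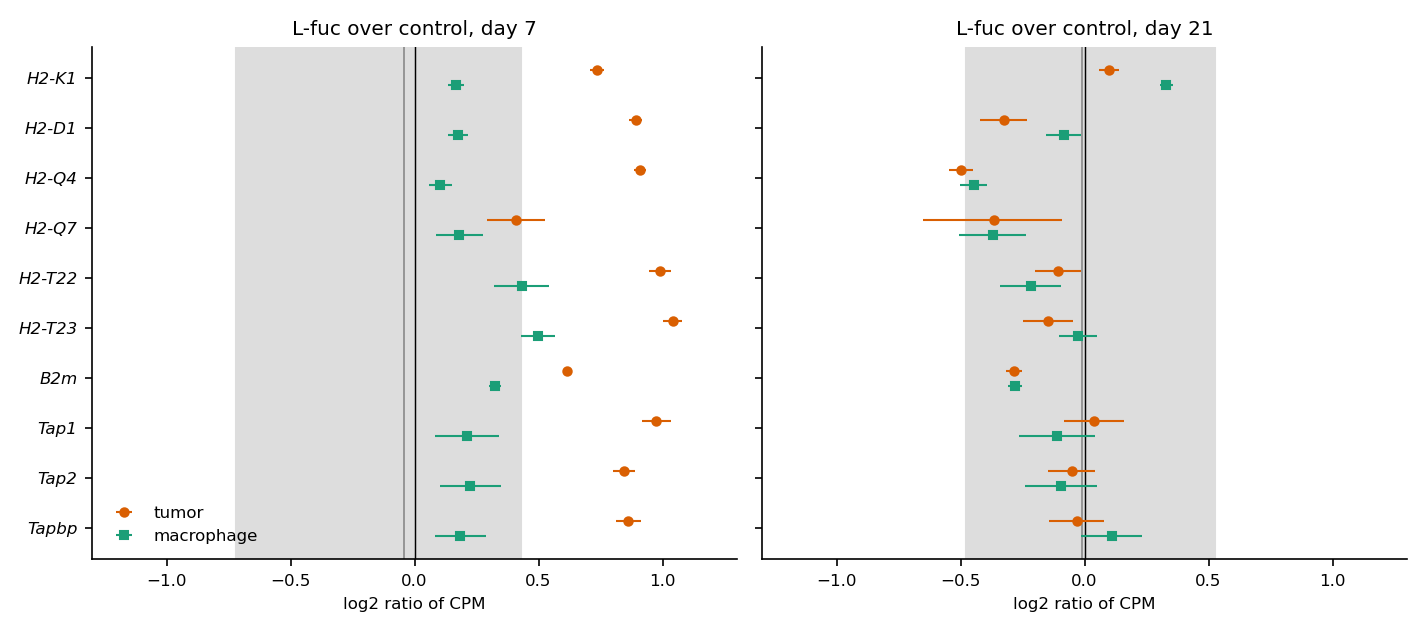
Log2 ratio of L-fuc over control for the 10 members in tumor (circles) and macrophage (squares) barcodes at day 7 and day 21, with exact 95% intervals. The grey band holds the 5th to 95th percentiles of all genes in tumor barcodes, -0.72 to 0.43 at day 7 and -0.48 to 0.53 at day 21, and 9 tumor points at day 7 lie above it, while H2-Q4 at day 21 (-0.50) lies below it.

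Tumor barcodes of the L-fuc library at day 7 were deeper than those of control, so the comparison was repeated within 4 bins of UMIs per barcode, a split chosen after the data were seen. The median log2 ratio of the members was 0.70 in barcodes of 2500 to 5000 UMIs, 0.64 from 5000 to 10000, 0.84 from 10000 to 20000 and 0.60 from 20000 to 40000, and the median of all genes was between -0.12 and 0.11. The ratio was above 1 in 39 of 40 pairs of member and bin, and such a share was not determined for all genes. The exception was Tapbp in the shallowest bin, with a log2 ratio of -0.26 and an interval on the ratio of 0.580 to 1.12, where the L-fuc library had 148 barcodes. Of the leukocyte genes, Tyrobp went from 39.4 CPM in tumor barcodes of control to 19.6 in L-fuc, and Laptm5 from 26.7 to 10.1. In the shallowest bin, though, Tyrobp was 2.52 times higher in L-fuc, at 176 against 69.8 CPM. The 4 class II genes, summed over all tumor barcodes, went from 3245 to 6963 CPM. The part of leukocyte RNA in the values of the members was not tested. When tumor barcodes with a UMI of Tyrobp, Laptm5, Cd52, Cd53 or Coro1a were left out, the median log2 ratio was 0.91.

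**Figure D4:**
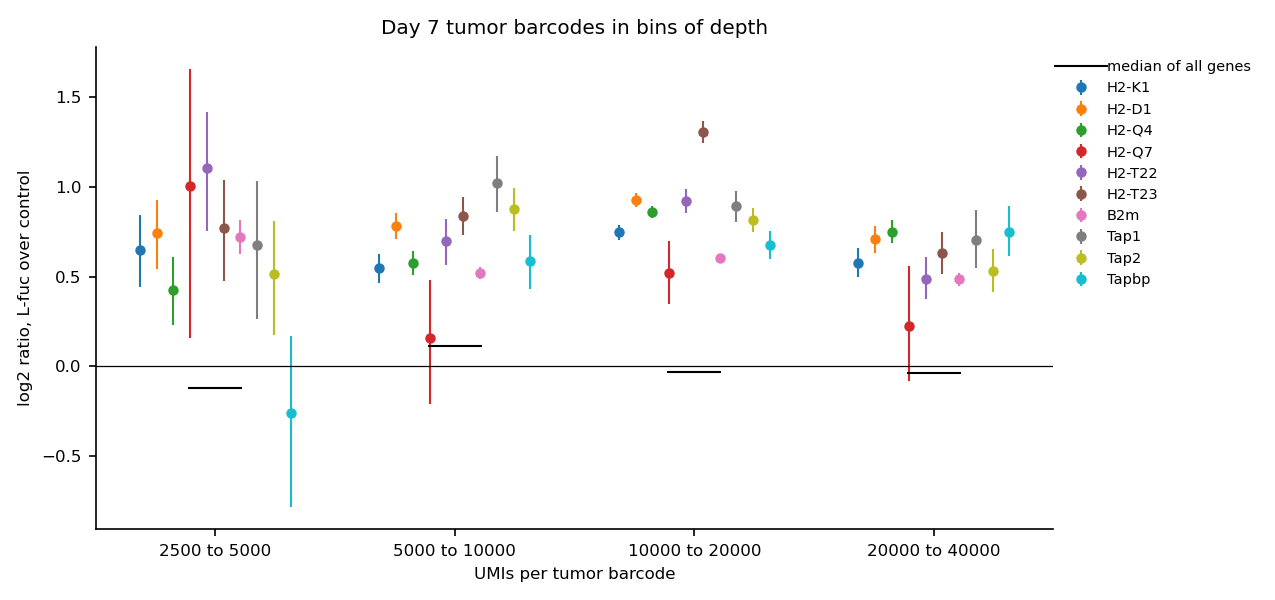
Log2 ratio of L-fuc over control at day 7 in tumor barcodes split by UMIs per barcode, for the 10 members with exact 95% intervals and, as black bars, the median of all genes. In each bin the members lie above the median of all genes, except Tapbp in the bin of 2500 to 5000 UMIs.

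In the immune gates at day 7 the 10 members were also higher in L-fuc. In macrophages the log2 ratios were 0.10 to 0.50, each below that of the same gene in tumor barcodes, with a median of 0.20 where all genes had a median of -0.21. In T cells they were 0.19 to 0.49, below tumor barcodes for all but H2-Q7 (0.49 against 0.41), with a median of 0.40 where all genes had -0.16. With scaling by trimmed means the medians were 0.41 in macrophages and 0.57 in T cells, against 0.91 in tumor barcodes. The difference between gates was not tested. None was 1.5-fold higher in either gate, a size reached by 2.86% of all genes in macrophages and 5.85% in T cells. After subtraction of the tumor RNA, the medians were 0.02 in macrophages and -0.07 in T cells. In barcodes that met no gate the median was 0.67, with tumor RNA at 79.7% of the tumor level in control and 50.6% in L-fuc.

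Other genes of the class I route are given for tumor barcodes at day 7 by list, against the same 3.24% of all genes at least 1.5-fold higher. The immunoproteasome list had 3 of 6 members at least 1.5-fold higher: Psmb8, its beta5i subunit, went from 355 to 771 CPM (log2 ratio 1.12), Psmb9 from 192 to 408 (1.09) and Psmb10 from 83.1 to 130 (0.64). The constitutive subunits Psmb5, Psmb6 and Psmb7 were at -0.14, -0.06 and -0.03. Of the 8 loading and trimming genes only Tapbpl, a tapasin relative, passed 1.5-fold (0.99), while the chaperone genes Calr, Canx and Pdia3 were at -0.14, -0.22 and -0.22. Of 16 regulators 4 passed, among them Nlrc5 (0.79), the class I transactivator, Irf1 (0.68), an interferon regulatory factor, and Socs1 (0.67), an inhibitor of cytokine signalling. The interferon-gamma receptor genes did not, with Ifngr1 at -0.26 and Ifngr2 at -0.02. Of 23 interferon-stimulated genes 12 passed, among them Igtp (1.17), Gbp3 (1.13) and Iigp1 (1.11), and 1, Rsad2 (-0.65), was 1.5-fold lower, a size reached by 6.08% of all genes.

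The other class I-like list had 16 genes, of which 10 held at least 50 UMIs and 4 passed 1.5-fold, with H2-M3, which presents formylated peptides, at 1.23. H2-M2 was lower, at -1.48, with 1.96 and 0.681 CPM. All 4 class II genes (Cd74, H2-Aa, H2-Ab1 and H2-Eb1) passed, with log2 ratios of 0.99 to 1.26. Cd274, which encodes PD-L1, went from 5.81 to 9.76 CPM (0.75).

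At day 21 the libraries of L-fuc and control lay close together in tumor barcodes. The log2 ratios of the members ran from -0.50 for H2-Q4 to 0.10 for H2-K1, with a median of -0.13, and the median of all genes was -0.01. No member passed 1.5-fold in either direction, while 3.84% of all genes were that much higher and 2.81% that much lower. H2-Q4 stood at 989 CPM in control and 700 in L-fuc, a ratio of 0.708 with an interval of 0.684 to 0.732, and B2m at 2067 and 1698. Tap1, Tap2 and Tapbp had ratios of 1.03, 0.965 and 0.978, with intervals that held 1. In macrophages H2-K1 was higher in L-fuc by 0.33 on the log2 scale and H2-Q4 was at -0.45. T cells had a median of -0.62, from 54 and 34 barcodes, and 5 of 10 members were at least 1.5-fold lower, a size that 27.4% of the 2029 genes tested reached.

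Over time in the control libraries, 3 of 10 members were at least 1.5-fold lower in tumor barcodes at day 7 than at day 0 (H2-Q4, H2-T22 and Tapbp), against 7.04% of all genes, and none was 2-fold lower, against 1.84%. The median log2 ratio was -0.46 and that of all genes 0.03. H2-Q7 was 1.52 times higher, from 59 and 1389 UMIs in all, and B2m and H2-D1 were at 1.01 and 1.06 times. In macrophages and T cells the medians were -0.23 and -0.40, and 0.03 and 0.13 after subtraction of tumor RNA.

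From day 7 to day 21 in control, 4 of 10 members were at least 2-fold higher in tumor barcodes (H2-K1, H2-Q4, H2-T22 and Tap1), against 4.65% of all genes, and the median log2 ratio was 0.91 with 0.16 for all genes. In macrophages and T cells the medians were 0.31 and 1.13, and 0.20 and 0.52 after subtraction of tumor RNA. H2-K1 was 3.92 times higher, with an interval of 3.83 to 4.01, a size reached by 0.779% of genes, while H2-D1 was lower, at 0.739 times. The same split between these genes was found in each gate: H2-K1 had log2 ratios of 1.97 in tumor barcodes, 0.98 in macrophages, 1.79 in T cells and 2.14 in ungated barcodes, and H2-D1 had -0.44, -0.86, -0.41 and -0.20.

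As a result, the balance of H2-K1 and H2-D1 differed by day in every gate. In tumor barcodes there were 1.32 UMIs of H2-K1 per UMI of H2-D1 at day 0, 0.908 in control and 0.814 in L-fuc at day 7, and 4.81 and 6.47 at day 21. In macrophages the values were 2.29, 1.74, 1.73, 6.26 and 8.35, and in T cells 2.87, 1.87, 1.86, 8.65 and 11.1. In all 4 gates the values at day 21 exceeded those at day 0 and day 7, in control and in L-fuc alike, and tumor barcodes had the lowest value of the gates in each library. Another 5 genes outside the route were chosen after their values were seen, so that they moved was known beforehand. They were taken to have near-identical copies in the genome, which was not checked here. From control at day 7 to control at day 21, Rnaset2b, Dynlt1c and Hypk were higher in every gate, by 2.72 to 3.28, 1.54 to 2.02 and 1.44 to 1.99 on the log2 scale. Gm10076 (-3.20 to -2.91) and Rps18 (-2.09 to -1.34) were lower. Their part in the result was not tested, and day and library cannot be told apart.

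**Figure D5:**
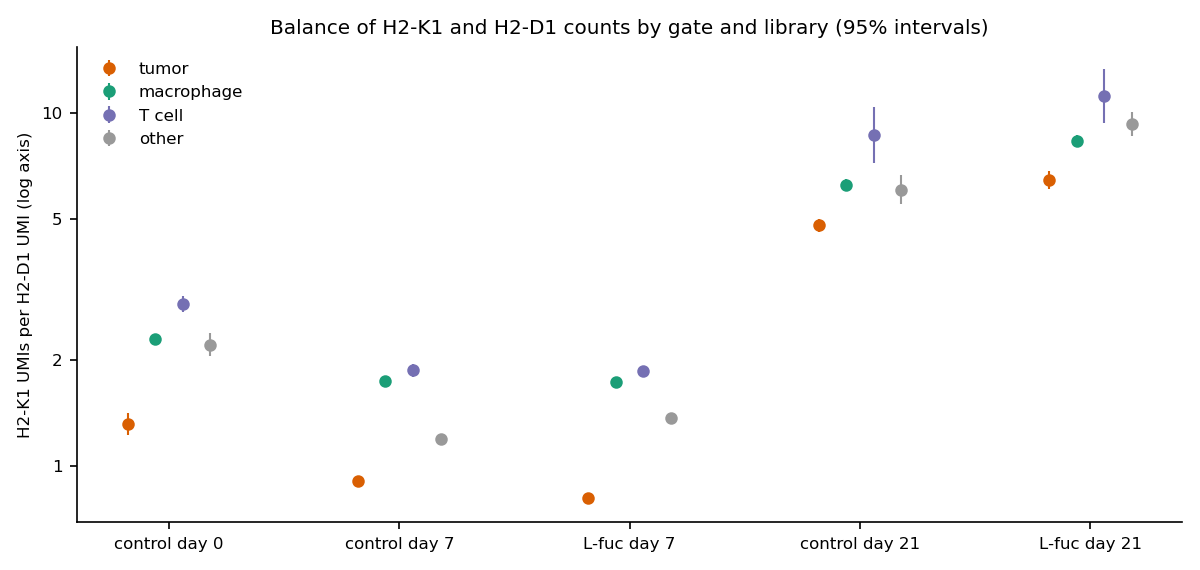
UMIs of H2-K1 per UMI of H2-D1 in 4 gates of the 5 libraries, on a log axis with exact 95% intervals. The values at day 21 are 4.81 to 11.1 in all gates, against 0.814 to 2.87 at day 0 and day 7.

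The genes most like the members were sought by the Pearson correlation of log2 levels with the mean of the standardised members. Over the 20 points of 5 libraries and 4 gates, and among 11534 genes, the 10 highest included H2-M3 (r = 0.90), Oma1 (0.85), Tmem160, Brms1, Letmd1, Gps2, Flad1, Hpcal1 and Sharpin (0.84 to 0.82). The members themselves had r of 0.45 (H2-D1 and Tap2) to 0.92 (H2-T23). Over the 5 tumor points alone the highest were the interferon-induced Gbp9 (0.99), the class II genes Cd74 (0.99), H2-Aa (0.99) and H2-Eb1 (0.99), and Pmepa1 (0.98). The members themselves then had r of 0.13 (H2-D1), 0.63 (H2-Q7) and 0.69 (H2-K1) up to 0.96 (Tap2). With only 5 points, some of 11534 genes can reach such high values without any link to the members. The points share libraries, depth and tumor RNA, so these values describe the libraries and were not tested.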

How the data were processed

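The authors aligned reads to mm10 with Cell Ranger (3.0 in the submitters' processing notes and 7.1.0 in the file headers) and deposited unnormalized UMI counts per gene and barcode. The 10x kit is not given in the sources used here. The T cell receptor files were not used. UMIs were summed over the barcodes of a gate in a library and divided by that gate's total. Log2 ratios had a pseudocount of 1 UMI and needed 50 or more UMIs of the gene summed over the pair. Intervals on ratios are exact conditional (Clopper-Pearson) intervals. The scripts were tested on simulated data. No doublets were removed in the main values, and removal with Scrublet (scanpy 1.11.5) was an alternative. Python 3.11.15, numpy 2.4.6, scipy 1.17.1 and pandas 2.3.3 were used. Members and gene lists were chosen with earlier results of these data known. All members and genes of the lists could be named, with the 10 and 5 nearest genes, and genes taken to have near-identical copies were added after their values were seen. Values of 2 genes of these lists are not reported here.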

Additional observations from a re-analysis of the deposited data

Results flagged for a closer look

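The log2 ratio of L-fuc over control in tumor barcodes was positive at day 7 and negative at day 21, with intervals on opposite sides of no change, for 6 members. The share of all genes with such a pattern was not determined. The log2 ratios at day 7 and day 21 were 0.91 and -0.50 for H2-Q4, a difference of 1.41, and 0.89 and -0.33 for H2-D1, a difference of 1.22. H2-T23 had 1.04 and -0.15, a difference of 1.19, and H2-T22 had 0.99 and -0.11, a difference of 1.10. B2m had 0.61 and -0.28, a difference of 0.90, and H2-Q7 had 0.41 and -0.37, a difference of 0.77. With 1 library per condition the difference between the days was not tested. The direction at day 21 turned under other settings for H2-Q7 (0.061 to 0.18 in 3 settings), H2-T22 (0.22 in 1) and H2-T23 (0.041 in 1).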

How the results depend on the processing

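No paired analysis was possible because each condition has 1 library and no mouse is identified. For the same reason no replicate could be left out. The median log2 ratio of the members in tumor barcodes stayed at 0.83 to 0.97 for L-fuc over control at day 7, -0.15 to -0.08 at day 21, -0.62 to -0.36 for day 7 over day 0 and 0.72 to 1.10 for day 21 over day 7 under the 17 alternatives tried. Those on barcodes of at least 10000 UMIs, tumor RNA and the 5 leukocyte genes, and the call at 1.5-fold, were chosen after seeing the data. The alternatives with a gene minimum of 10 or 200 UMIs could not move these medians, because every member held more UMIs in each pair of libraries. The count at least 2-fold higher in L-fuc at day 7, 1 in the main values, was 9 at 1.5-fold, 2 with Sox10 of at least 2, 2 with barcodes weighted equally, 2 after thinning, 3 with scaling by trimmed means (TMM) and 4 when tumor barcodes with any of 6 leukocyte genes (Fcer1g and the 5 named above) were left out. That gate also gave 6 members 1.5-fold and 2 members 2-fold lower at day 7 than at day 0, where the 2-fold count was 3 at 1.5-fold and 1 with barcodes weighted equally. The count 2-fold higher at day 21 than at day 7 was 2 with TMM, 2 without mitochondrial, ribosomal, hemoglobin, Malat1 and Gm42418 UMIs and 2 in barcodes of at least 10000 UMIs. Against macrophages, the count 2-fold lower was 7 at day 0, 7 in control and 4 in L-fuc at day 7 with TMM, 8 in control and 4 in L-fuc at day 7 at 1.5-fold, and 7 in control at day 7 after subtraction of tumor RNA. Shares of all genes are given above for the main values and for 1.5-fold only. The other counts of this paragraph stand without the share of all genes under their own setting. TMM shifts every gene of a comparison by the same amount, so the shares above do not apply to it. These counts show only how the calls moved. Thinning gave 1 member 1.5-fold lower in L-fuc at day 21, with 9 of 10 members measured. At 1000 UMIs, H2-K1 was seen in 24.9%, 23.3%, 35.5%, 61.3% and 66.4% of tumor barcodes. Reversed values of tumor over macrophage (log2) were, with TMM, H2-T22 at -0.50 at day 0, -0.074 in L-fuc at day 7, -0.31 in control and -0.16 in L-fuc at day 21, Tap1 at -0.29 in L-fuc at day 7, -0.51 in control and -0.32 in L-fuc at day 21, and Tap2 at -0.050 at day 0. With barcodes weighted equally they were H2-T22 at -0.071 at day 0, Tapbp at 0.026 in L-fuc at day 7 and H2-Q4 at 0.020 in control at day 21, and after thinning H2-T22 at -0.071 at day 0. Between libraries, the gate without 6 leukocyte genes reversed H2-Q7 (0.18) and H2-T22 (0.22) at day 21 and H2-D1 (-0.12) for day 7 over day 0, equal weights reversed H2-Q7 (0.094) and H2-T23 (0.041) at day 21, and thinning reversed H2-Q7 (0.061) there. Medians reversed in macrophages at day 7 with equal weights (-0.0014), in macrophages at day 21 after thinning (0.054), and after subtraction of tumor RNA in T cells at day 7 (-0.072) and in macrophages (0.031) and T cells (0.13) for day 7 over day 0. The causes were not tested. Scrublet removed 2, 344, 187, 1 and 1 barcodes, by its automatic threshold except at day 7, where that marked none and the barcodes with the highest scores were taken, up to a doublet rate set from the number of barcodes in the library. A single library per condition, tumor RNA in the immune gates and few T cells at day 21 limit all of these values.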
